A study of Mus musculus with 4 samples.

Results

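Complement is a set of plasma and membrane proteins that tags particles and cells for uptake and calls in inflammatory cells. Here 9 of its genes were followed in lung CD8+ T cell libraries: C1qa, C1qb, C1qc, C3, Cfb, Cfp, C5ar1, C3ar1 and Serping1. They were matched by exact symbol, and each of the 9 had 1 row among the 55401 genes of the files. The set was chosen by the measured counts and transcripts-per-million (TPM) of these genes in these same libraries, so their differences are given as a description, without a test.

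RNA sequencing was performed on cells that had been sorted from lungs of C57BL/6J mice by the surface proteins CD3 and CD8. There were 4 groups: CD4-depleted IPF-LC, isotype IPF-LC, CD4-depleted LC and isotype LC. The depleted groups received an antibody against CD4 that removes CD4+ cells and the isotype groups a control antibody, and IPF-LC and LC are disease models whose names the labels do not spell out. Each group had 1 library, so no value has an error between mice. How many mice were pooled, if any, and their age are not given in the sources used here.

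In complement, the classical pathway starts when C1q binds antibody or a damaged surface. C1q is built from the chains encoded by C1qa, C1qb and C1qc, and macrophages are a main source of it. Every pathway meets at C3, whose cleavage leaves one fragment on the target and releases the anaphylatoxin C3a. The alternative pathway amplifies this step with factor B (Cfb) and is stabilised by properdin (Cfp). C3a and C5a act on the receptors encoded by C3ar1 and C5ar1, which myeloid cells carry, and C1 inhibitor (Serping1) blocks the proteases of C1.

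The 4 libraries held between 14946569 and 16217672 counts. Cd3e, Cd8a and Cd8b1, which define the sorted cells, were abundant in each library: the level of Cd8a lay between 353 and 518 counts-per-million (CPM, scaled by edgeR's trimmed mean of M-values, TMM). The 12 CD8 T cell markers summed to between 5754 and 6807 CPM, and none of them was 2-fold apart between depleted and isotype libraries of either model. Transcripts of other cell types were also present at unequal levels, and they are given beside the complement genes. Intervals are exact 95% counting intervals. They cover counting error only, since the reads carry no molecular identifiers and are not independent molecules.

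The complement genes were sparse next to the T cell genes and unequal between libraries. Summed over the 9 genes, the level was 21.3 CPM in CD4-depleted IPF-LC, against 108 CPM in isotype IPF-LC, and 4.40 CPM in CD4-depleted LC, against 377 CPM in isotype LC. All 9 genes had their highest level in isotype LC and their second highest in isotype IPF-LC. In 7 of the 9 the lowest level was in CD4-depleted LC, while C3 and Cfb were lowest in CD4-depleted IPF-LC. In these bulk libraries, fewer cells of a type and less RNA per cell cannot be told apart.

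**Figure D1:**
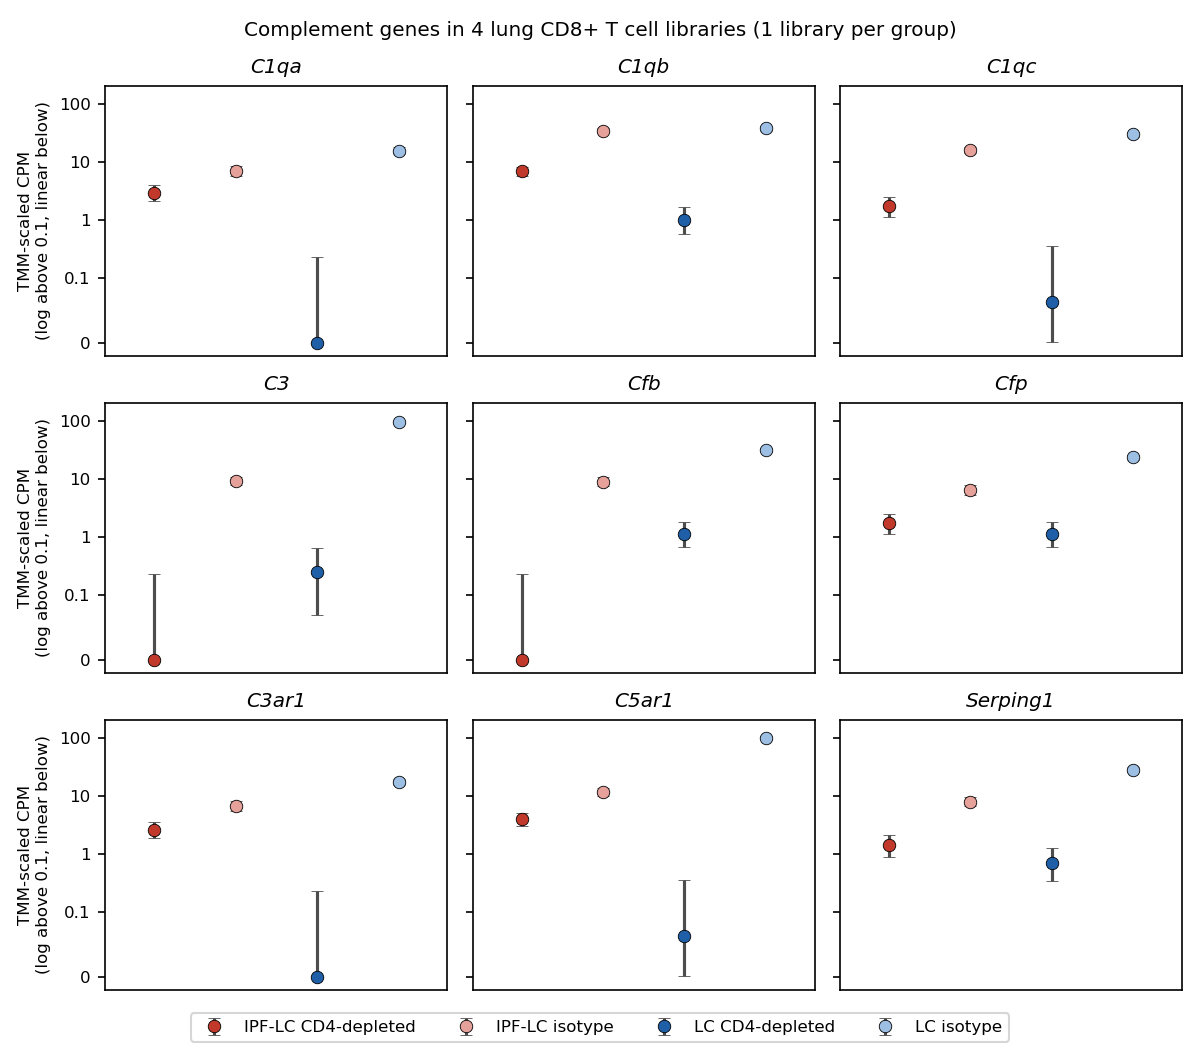
Level of each of the 9 complement genes in TMM-scaled CPM on the vertical axis (logarithmic above 0.1 CPM and linear below), with 1 point per library and exact 95% Poisson counting intervals. The isotype libraries (light points) lie above the depleted library of the same model (dark points) in all 9 panels, and each depleted library has 2 genes at 0 counts.

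After CD4 depletion in IPF-LC, all 9 genes were at least 2-fold lower than in the isotype library, where 13.6% of the 12231 genes that averaged 1 CPM or more were lower by that much. In LC, all 9 were likewise at least 2-fold lower after depletion, against 15.4% of all genes. The median log2 ratio of the 9 was -2.32 in IPF-LC, beside a median of -0.02 over all genes. In LC it was -8.27, or -6.34 with undetected genes held at their bound, beside 0.01 over all genes. Since these libraries chose the genes, nothing is read from these counts. All 9 passed the minimum of 1 CPM on the mean, but 2 of them reached 1 CPM in each of the 4 libraries. In CD4-depleted IPF-LC 7 of the genes reached that level and in CD4-depleted LC 3 did.

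Among the recognition chains of the classical pathway, depletion went with lower levels of each. C1qa had 46 counts (2.95 CPM) in CD4-depleted IPF-LC, against 108 counts (6.91 CPM) in isotype IPF-LC, and 0 counts in CD4-depleted LC, against 240 counts (15.5 CPM) in isotype LC. C1qb stood at 6.87 CPM in CD4-depleted IPF-LC, against 34.4 in isotype IPF-LC, and 1.02 in CD4-depleted LC, against 37.3 in isotype LC. C1qc stood at 1.73 CPM in CD4-depleted IPF-LC, against 15.9 in isotype IPF-LC, and at 1 count in CD4-depleted LC, against 457 counts (29.6 CPM) in isotype LC. Every chain was thus lower after depletion in each model, and the intervals of each of these log2 ratios lay below 0.

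The size of the difference was unequal among the chains. In IPF-LC the log2 ratios of depleted over isotype were -1.22 (-1.76 to -0.72) for C1qa, -2.32 (-2.64 to -2.02) for C1qb and -3.18 (-3.83 to -2.63) for C1qc. The interval of C1qa overlaps neither of the others, while those of C1qb and C1qc overlap at their ends. C1qa thus did not keep a fixed proportion to the other chains within counting error. Nor did C1qb and C1qc to each other, by the intervals of their direct ratio in IPF-LC given below. In LC, C1qb had a ratio of -5.15 (-6.01 to -4.48). C1qc, resting on 1 count after depletion, had -8.27 (-14.2 to -6.37). C1qa was at least 81.1-fold lower by a floor of 3 counts per library, although its counting interval has an upper end of -6.03, which is a smaller fold.

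Per transcript length, the chains were compared in TPM. C1qb exceeded C1qa 2.18-fold (1.53 to 3.15) in CD4-depleted IPF-LC, 4.68-fold (3.80 to 5.80) in isotype IPF-LC and 2.26-fold (1.94 to 2.63) in isotype LC. In CD4-depleted LC no C1qa was counted. C1qb exceeded C1qc 4.55-fold (2.96 to 7.22) in CD4-depleted IPF-LC, 2.48-fold (2.13 to 2.89) in isotype IPF-LC and 1.45-fold (1.28 to 1.64) in isotype LC. In CD4-depleted LC the ratio was 18.9-fold (2.93 to 792), on 16 counts of C1qb and 1 of C1qc. The isotype IPF-LC library thus had the largest excess of C1qb over C1qa among the 3 libraries with both chains, and the isotype LC library the smallest excess of C1qb over C1qc.

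The genes of the chains are neighbours in the mouse genome: in the RefSeq order of GRCm38.p6, C1qc lies between C1qb and C1qa with no other protein-coding gene among them. The start regions of C1qb and C1qc are shown because the chains are made together in one protein. None was matched for C1qa. The start region of C3 is shown because its lowest level was in CD4-depleted IPF-LC, an order resting on 0 counts against 4 and within counting error. RefSeq windows of 300 bases, 250 before to 50 after the start, were matched for 6 of the 9 genes. Capitals mark GAGGAA or its reverse complement TTCCTC, the core bound by PU.1, a transcription factor of myeloid and B cells. The C1qb window (chr4:136886151-136886450, minus strand) and the C1qc window (chr4:136892865-136893164, minus strand) hold 1 match each, and the C3 window (chr17:57228087-57228386, minus strand) holds none.
C1qb: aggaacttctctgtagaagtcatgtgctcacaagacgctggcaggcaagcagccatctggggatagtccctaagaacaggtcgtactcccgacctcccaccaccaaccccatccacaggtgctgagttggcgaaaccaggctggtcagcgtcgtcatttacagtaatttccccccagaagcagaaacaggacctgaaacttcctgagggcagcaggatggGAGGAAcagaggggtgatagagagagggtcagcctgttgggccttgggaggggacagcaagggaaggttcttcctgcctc
C1qc: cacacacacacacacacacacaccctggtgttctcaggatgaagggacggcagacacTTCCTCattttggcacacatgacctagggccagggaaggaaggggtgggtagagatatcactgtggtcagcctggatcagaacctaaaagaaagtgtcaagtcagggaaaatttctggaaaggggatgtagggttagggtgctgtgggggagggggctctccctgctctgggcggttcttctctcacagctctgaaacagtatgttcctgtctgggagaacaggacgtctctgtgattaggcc
C3: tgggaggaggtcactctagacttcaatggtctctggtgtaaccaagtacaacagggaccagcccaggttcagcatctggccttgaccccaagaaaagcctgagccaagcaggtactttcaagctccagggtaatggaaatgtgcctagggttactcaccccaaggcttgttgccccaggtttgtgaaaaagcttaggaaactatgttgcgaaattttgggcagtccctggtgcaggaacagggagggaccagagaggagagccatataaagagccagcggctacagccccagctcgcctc
Of the 6 windows, those of C1qb, C1qc and Cfp held this core on either strand, and 28.3% of the 32851 RefSeq windows did. The AP-1 site TGACTCA occurred in the window of C3ar1, against 5.2% of all windows, and the TATA box letters TATAAA in those of C3 and C3ar1, against 13.6%. These are matches of letters in a reference sequence of the older build, not sites shown to be bound.

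C3 and the alternative pathway genes Cfb and Cfp were lower after depletion as well. C3 and Cfb, though not Cfp, were lowest in CD4-depleted IPF-LC, and for C3 that order was within counting error. C3 had 0 counts in CD4-depleted IPF-LC, against 144 counts (9.21 CPM) in isotype IPF-LC. In CD4-depleted LC it had 4 counts (0.255 CPM), against 1456 counts (94.2 CPM) in isotype LC. It was therefore 369-fold lower after depletion in LC, a log2 ratio of -8.36 (-10.4 to -7.17). In IPF-LC the floor puts it at least 47.9-fold lower, while the upper end of the counting interval, -5.26, is a smaller fold.

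Factor B showed the same order. Cfb had 0 counts in CD4-depleted IPF-LC, against 140 counts (8.96 CPM) in isotype IPF-LC, and 18 counts (1.15 CPM) in CD4-depleted LC, against 487 counts (31.5 CPM) in isotype LC. With depletion it was 27.4-fold lower in LC (-4.74, -5.55 to -4.10). In IPF-LC the floor puts it at least 46.5-fold lower, while the upper end of its counting interval, -5.22, is a smaller fold. Cfb lies next to C2 in the RefSeq order, and C2, its counterpart in the classical pathway, had 0 counts in CD4-depleted IPF-LC, against 12 in isotype IPF-LC, and 5 in CD4-depleted LC, against 33 in isotype LC.

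Properdin, the stabiliser of the alternative pathway convertase, remained detectable in each library. Cfp had 27 counts (1.73 CPM) in CD4-depleted IPF-LC, against 101 counts (6.46 CPM) in isotype IPF-LC, and 18 counts (1.15 CPM) in CD4-depleted LC, against 363 counts (23.5 CPM) in isotype LC. The log2 ratios were -1.88 (-2.57 to -1.27) in IPF-LC and -4.32 (-5.13 to -3.67) in LC. The deposited gene length of Cfp, which is weighted over its transcripts, was 784 bases in CD4-depleted LC and between 1599 and 1636 bases in the other libraries. On the TPM scale Cfp therefore stood at 1.64 in CD4-depleted IPF-LC, 6.36 in isotype IPF-LC, 3.03 in CD4-depleted LC and 25.1 in isotype LC. The order of the depleted libraries was the reverse of that by CPM, and the LC ratio was -3.03. With 18 counts behind it, the shorter length is uncertain.

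The anaphylatoxin receptors were among the genes furthest apart in LC. C5ar1, the receptor for C5a, had 62 counts (3.98 CPM) in CD4-depleted IPF-LC, against 181 counts (11.6 CPM) in isotype IPF-LC. It had 1 count in CD4-depleted LC, against 1544 counts (99.9 CPM) in isotype LC. Its log2 ratio was -1.53 (-1.98 to -1.12) in IPF-LC and -10.0 (-15.9 to -8.13) in LC.

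C3ar1, the receptor for C3a, had 41 counts (2.63 CPM) in CD4-depleted IPF-LC, against 103 counts (6.59 CPM) in isotype IPF-LC, and 0 counts in CD4-depleted LC, against 266 counts (17.2 CPM) in isotype LC. The ratio in IPF-LC was -1.31 (-1.88 to -0.79). In LC the gene was at least 89.9-fold lower, and the upper end of its counting interval, -6.18, is a smaller fold.

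Serping1, which encodes the inhibitor of the C1 proteases, had 22 counts (1.41 CPM) in CD4-depleted IPF-LC, against 124 counts (7.93 CPM) in isotype IPF-LC. In LC it had 11 counts (0.702 CPM) after depletion, against 431 counts (27.9 CPM) with isotype antibody. It was 5.62-fold lower after depletion in IPF-LC (-2.46, -3.22 to -1.83) and 39.7-fold lower in LC (-5.25, -6.33 to -4.46). Like Cfp, it was detected in each of the 4 libraries.

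Per transcript length, in TPM, the genes were not in the same order in each library. In isotype IPF-LC the chains led, with C1qb at 57.8, C1qc at 23.3 and C1qa at 12.3 TPM. C5ar1 (8.10), Serping1 (7.11), Cfp (6.36) and Cfb (5.61) followed, each within counting error of its neighbour in that order, and C3 (2.88) and C3ar1 (2.15) came last. In isotype LC, C1qb at 66.0 TPM and C5ar1 at 62.8 TPM did not differ beyond counting error, and C1qc (45.6) and C3 (36.1) came next. C1qa (29.3), Serping1 (26.4), Cfp (25.1) and Cfb (22.8) followed, again each within counting error of the next, with C3ar1 last at 5.94 TPM. C3 was thus at position 8 of 9 in isotype IPF-LC and at position 4 in isotype LC. In CD4-depleted IPF-LC, C1qb led at 11.1 TPM and C1qa was next at 5.09, while in CD4-depleted LC Cfp (3.03) and C1qb (1.70) led within counting error of each other.

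**Figure D2:**
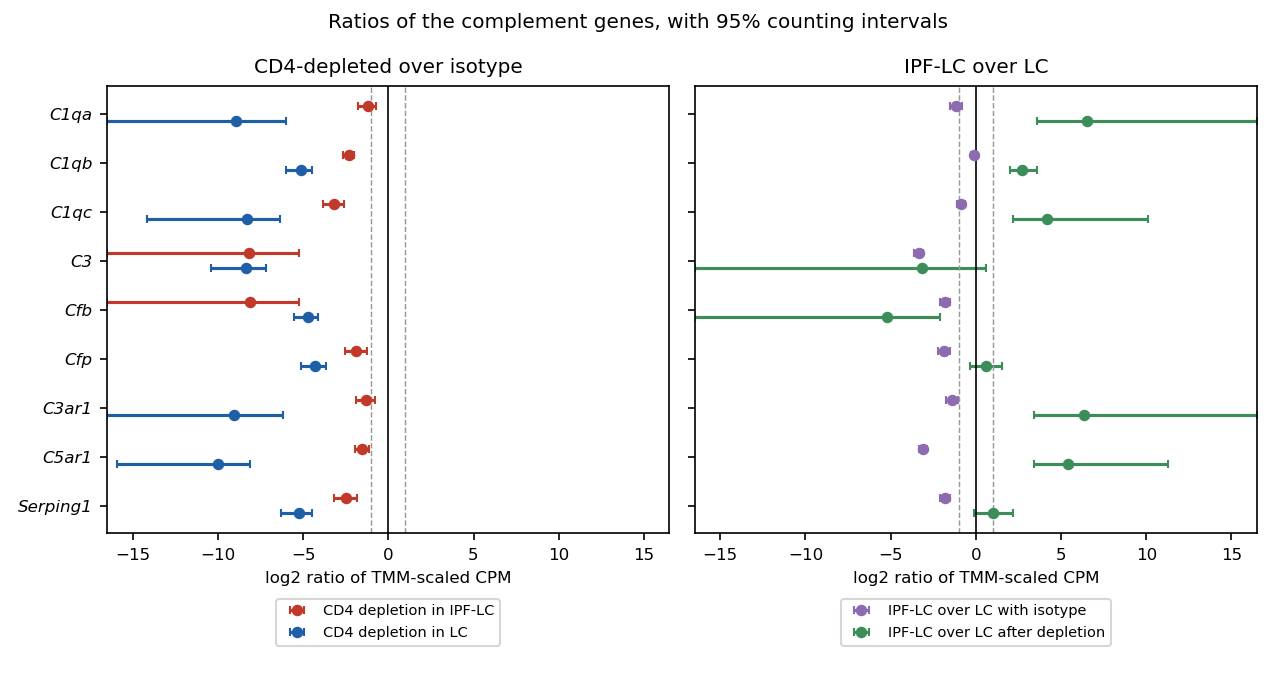
Log2 ratios of TMM-scaled CPM on the horizontal axis for CD4-depleted over isotype libraries (left) and IPF-LC over LC libraries (right), with exact 95% counting intervals, where bars that reach the frame have no limit on that side and dashed lines mark 2-fold. The depletion ratios of all 9 genes are negative in both models, between -1.22 and -8.17 in IPF-LC and between -4.32 and -10.0 in LC.

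IPF-LC and LC were then compared with the same antibody. These comparisons use the same libraries as the depletion comparisons and are not independent of them. With isotype antibody, 7 of the 9 genes were at least 2-fold lower in IPF-LC than in LC and 0 were higher by that much, where 11.7% of all genes were lower and 5.32% higher. C3 was 10.2-fold lower in IPF-LC (-3.35, -3.61 to -3.11) and C5ar1 8.63-fold lower (-3.11, -3.34 to -2.89). Cfb, Cfp and Serping1, between 3.52-fold and 3.63-fold lower, were alike in this comparison, and C1qa (-1.16, -1.51 to -0.83) and C3ar1 (-1.38, -1.73 to -1.05) differed less. C1qb, at 34.4 CPM in isotype IPF-LC and 37.3 CPM in isotype LC, showed no difference detectable at this depth (-0.12, -0.29 to 0.05), while C1qc had a ratio of -0.89 (-1.12 to -0.67).

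After depletion the genes went in different directions between the models. C1qa, C1qb, C1qc, C3ar1 and C5ar1, that is 5 of the 9, were at least 2-fold higher in CD4-depleted IPF-LC than in CD4-depleted LC, where 9.59% of all genes were higher. C1qb had a ratio of 2.71 (1.98 to 3.61) and C5ar1 one of 5.39 (3.43 to 11.3), while C1qa was at least 15.4-fold and C3ar1 at least 13.7-fold higher by the floor. The lower ends of the counting intervals, 3.59 for C1qa and 3.42 for C3ar1, are smaller folds. Cfb and C3, 2 of the 9, had ratios past 2-fold in the other direction, where 7.61% of all genes were lower. Cfb, with 0 counts against 18, was at least 5.97-fold lower in IPF-LC by the floor, though the upper end of its interval, -2.13, is a smaller fold. For C3, with 0 counts against 4, the counting interval reached 0.61, so a difference could not be detected at this depth. Cfp (0.58, -0.32 to 1.54) and Serping1 (0.98, -0.10 to 2.20) likewise showed none.

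The genes whose profile over the 4 libraries was most like that of C1qa, by Euclidean distance between centred log2 levels among 8187 genes averaging 10 CPM or more, were Mpeg1, Myof, Adgrl4, Adamts1 and Rassf4. Mpeg1, which encodes the pore-forming perforin-2 of phagocytes, was nearest at a distance of 0.31 log2 units. It stood at 26.2 CPM in CD4-depleted IPF-LC, against 50.9 in isotype IPF-LC, and 0.255 in CD4-depleted LC, against 153 in isotype LC. Myof at 0.86 and Adgrl4 at 0.99 came next, followed by Adamts1 and Rassf4. Unlike Mpeg1, these genes were at 0 CPM in CD4-depleted LC. Which cells carried the nearest genes was not tested, so no cell type is read from Mpeg1. For C3 the nearest were Tlr13, Fermt2, Adgre4, Gpr35 and Cfb, at distances between 2.27 and 2.57. Among the 9 genes themselves, C1qa and C3ar1 had the most alike profiles (0.23) and C1qa and Cfb the least alike (8.43). Profiles over 4 libraries with counts near 0 are coarse, and the distances depend on the prior count where a library had none.

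Markers of several other cell types were also lower after depletion. For macrophages and monocytes, the 16 markers had a summed level of 961 CPM in CD4-depleted IPF-LC, against 2895 in isotype IPF-LC. After depletion 13 of the 16 were at least 2-fold lower, where 13.6% of all genes were, and Fcgr1 was at 0. In LC they summed to 60.6 CPM after depletion, against 3224 with isotype antibody. There 16 of 16 were at least 2-fold lower, where 15.4% of all genes were. Of these markers 6 were at 0, among them Adgre1, Fcgr1, Mertk, Ms4a7 and Clec7a. Lyz2, a lysozyme of phagocytes, made up most of these sums, with 788 CPM in CD4-depleted IPF-LC, against 2408 in isotype IPF-LC, and 33.4 CPM in CD4-depleted LC, against 2089 in isotype LC. Without Lyz2, an alternative chosen after the values were seen, the other 15 summed to 173 CPM in CD4-depleted IPF-LC, against 487 in isotype IPF-LC, and 27.2 CPM in CD4-depleted LC, against 1134 in isotype LC. Their part in the complement values was not tested.

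Set against this sum, the complement genes formed unlike groups. Per 1000 CPM of macrophage and monocyte markers, C5ar1 stood at 4.14 in CD4-depleted IPF-LC, against 4.00 in isotype IPF-LC. C3ar1 stood at 2.74, against 2.28, and C1qa at 3.07, against 2.39, in the same pair of libraries. The log2 ratios of C5ar1, C3ar1 and C1qa lay 0.06, 0.28 and 0.37 above that of the marker sum in IPF-LC, so these genes and the sum differed by a similar factor there. C3 and Cfb did not: per 1000 CPM of the markers both were undetected in CD4-depleted IPF-LC, against 3.18 for C3 and 3.09 for Cfb in isotype IPF-LC. C1qc stood at 1.80 in CD4-depleted IPF-LC, against 5.50 in isotype IPF-LC, and C1qb at 7.14, against 11.9, so these chains were lower relative to the markers as well. Serping1 stood at 1.47, against 2.74, and Cfp at 1.80, against 2.23. Their log2 ratios differed from that of the sum by -0.87 for Serping1 and -0.29 for Cfp, the latter within counting error. Without Lyz2, C5ar1 stood at 23.0 per 1000 CPM in CD4-depleted IPF-LC, against 23.8 in isotype IPF-LC. Relative to the lung epithelial sum, the log2 ratios of C5ar1, C3ar1 and C1qa in IPF-LC differed by -0.33, -0.11 and -0.01. Relative to the interstitial macrophage sum they differed by -0.02, 0.20 and 0.29. The alveolar macrophage sum (0.38, 0.60 and 0.69) and the fibroblast sum (1.60, 1.82 and 1.92) lay further off. Closeness in IPF-LC was thus not particular to the macrophage and monocyte list.

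In LC the groups were others. Per 1000 CPM of the 16 markers, C5ar1 stood at 1.05 in CD4-depleted LC, against 31.0 in isotype LC, C3 at 4.21, against 29.2, and C1qc at 1.05, against 9.17, while C1qa and C3ar1 were undetected after depletion. The remaining 4 genes stood higher relative to the markers after depletion, C1qb and Serping1 within counting error. Cfp and Cfb both stood at 18.9 in CD4-depleted LC, against 7.29 for Cfp and 9.78 for Cfb in isotype LC. C1qb stood at 16.8, against 11.6, and Serping1 at 11.6, against 8.65. The intervals of the depletion ratios of C1qb (-6.01 to -4.48) and Serping1 (-6.33 to -4.46) contain the ratio of the marker sum, -5.73. Without Lyz2 that ratio was -5.38, which the interval of Cfb (-5.55 to -4.10) contains as well. Per 1000 CPM without Lyz2, C1qb stood at 37.6 in CD4-depleted LC, against 32.9 in isotype LC, and Serping1 at 25.8, against 24.6. These values rest on 18 counts or fewer of each gene in CD4-depleted LC.

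Between the isotype libraries, 10 of the 16 macrophage and monocyte markers were at least 2-fold lower in IPF-LC than in LC and 0 higher. Of all genes, 11.7% were lower and 5.32% higher. The median log2 ratio of the 16 markers was -1.17. The log2 ratio of their sums was -0.16 with Lyz2 and -1.22 without it, and Cd68 stood at 42.2 CPM in isotype IPF-LC and 101 CPM in isotype LC. Other lists were lower in isotype IPF-LC too. The 10 alveolar macrophage markers summed to 358 CPM in isotype IPF-LC and 1735.5 in isotype LC, the 10 interstitial macrophage markers to 42.3 and 194 CPM in the same order, and the 10 neutrophil markers to 7.04 and 115 CPM. The 12 fibroblast markers summed to 75.1 CPM in isotype IPF-LC and 129 in isotype LC, and the 14 lung epithelial markers to 63.7 and 144. Whether these cells carried the complement transcripts was not tested.

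After depletion the sums of these lists were lower in each model, though not each by 2-fold. Alveolar macrophage markers summed to 95.1 CPM in CD4-depleted IPF-LC, with Siglecf and Marco at 0, and to 11.4 CPM in CD4-depleted LC, with 6 of 10 at 0. Of these 10, 6 were lower after depletion in IPF-LC by 2-fold or more and 3 were higher, where 13.6% of all genes were lower and 8.84% higher. Interstitial macrophage markers summed to 14.8 CPM in CD4-depleted IPF-LC and 9.31 in CD4-depleted LC, and neutrophil markers to 4.62 and 2.55. In IPF-LC the neutrophil sum was under 2-fold apart. Of the 7 neutrophil markers that averaged 1 CPM or more, 3 were lower after depletion by 2-fold or more and 1 higher. The shares of all genes were again 13.6% and 8.84%, and the median log2 ratio of the 7 was 0. Cxcr2, Ltf and Ngp were among the neutrophil markers at 0 in both IPF-LC libraries. This median therefore stands for markers without counts, not for unchanged ones. Fibroblast markers were the one list of these with the lower sum in IPF-LC, at 8.53 CPM in CD4-depleted IPF-LC and 16.3 CPM in CD4-depleted LC, and Dcn, a proteoglycan of fibroblasts, was at 0 in both. Lung epithelial markers summed to 27.7 CPM in CD4-depleted IPF-LC and 18.1 in CD4-depleted LC.

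Endothelial markers were lower after depletion as well, with 12 of 13 genes at least 2-fold lower in each model. Of all genes, 13.6% were lower by that much in IPF-LC and 15.4% in LC. The median log2 ratios of the 13 markers were -2.52 in IPF-LC and -4.01 in LC. The 13 endothelial markers summed to 189 CPM in CD4-depleted IPF-LC, against 358 in isotype IPF-LC, and to 175 in CD4-depleted LC, against 453 in isotype LC. Much of this was Pecam1, at between 129 and 145 CPM in each library. Without it, an alternative likewise chosen after the values were seen, the other 12 summed to 52.1 CPM in CD4-depleted IPF-LC, against 225 in isotype IPF-LC, and 46.1 CPM in CD4-depleted LC, against 308 in isotype LC. The 8 B cell markers summed to between 20.1 and 46.3 CPM, the 7 dendritic cell markers to between 16.2 and 28.9 CPM and the 7 mesothelial markers to between 0.642 and 2.75 CPM, where Msln was at 0 in isotype IPF-LC and in CD4-depleted LC.

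**Figure D3:**
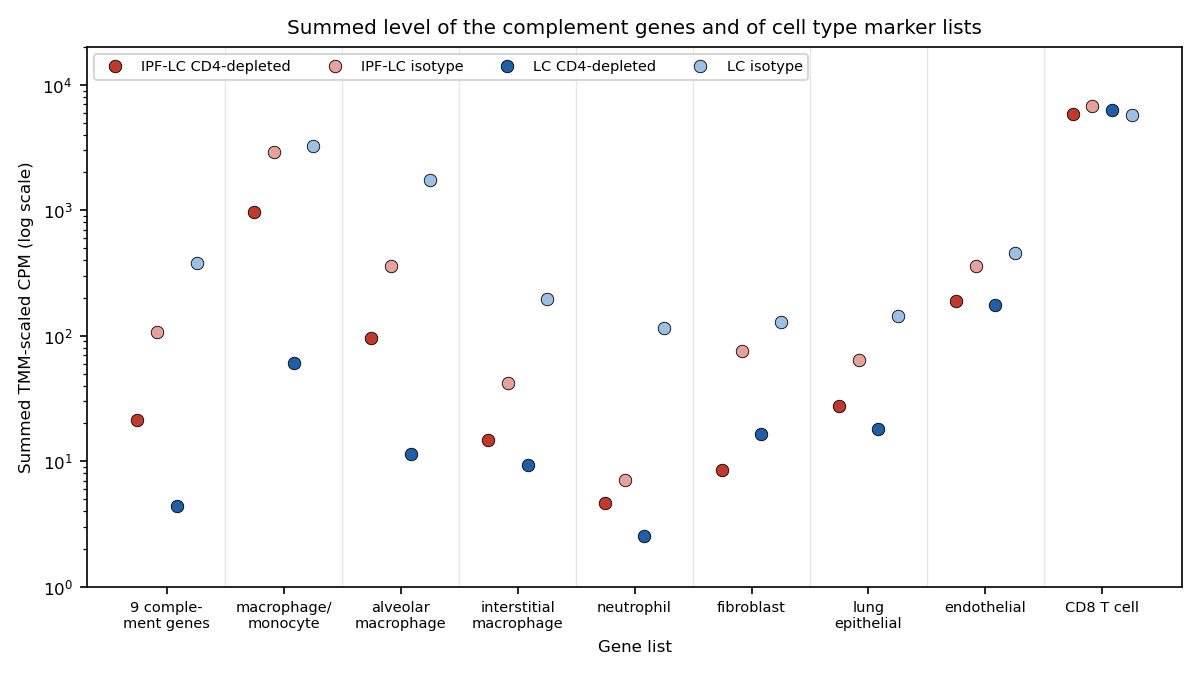
Summed TMM-scaled CPM (logarithmic vertical axis) of the 9 complement genes and of 8 marker lists, with 1 point per library. The CD8 T cell sums lie between 5754 and 6807 CPM in all 4 libraries, whereas the complement sum ranges between 4.40 and 377 CPM and the macrophage and monocyte sum between 60.6 and 3224 CPM.

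The other 50 listed complement genes place these values in the pathway. An average of 1 CPM or more was reached by 17 of them, and 21 had no count in any library, among them Masp1, Mbl1, Mbl2, C6, C8a, C8b and C9. After depletion in IPF-LC 9 of the 17 were at least 2-fold lower and 0 higher, where 13.6% of all genes were lower and 8.84% higher. In LC 11 of the 17 were at least 2-fold lower and 1 higher, where 15.4% of all genes were lower and 5.85% higher. Their median log2 ratio was -1.51 in IPF-LC and -3.23 in LC. Of the 17, 8 lay under 1 CPM in some library and passed through the libraries where they were high.

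Depletion went with a lower level, by 2-fold or more, of 1 of the 3 classical pathway genes among the 17 in IPF-LC and of all 3 in LC. C1s1, a protease of the C1 complex, had 0 counts in both depleted libraries, against 4.99 CPM in isotype IPF-LC and 12.4 CPM in isotype LC. Its partner C1ra stood at 1.22 CPM in CD4-depleted IPF-LC, against 2.43 in isotype IPF-LC (-0.98, -1.87 to -0.17), and 0.829 in CD4-depleted LC, against 8.02 in isotype LC.

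C4b, a component cleaved by the C1 proteases, was counted in the isotype LC library alone, at 31.6 CPM, and had 0 counts in the other 3. Its near-identical copy C4a had 3 counts in CD4-depleted IPF-LC and 0 elsewhere, and how reads were split between the copies is uncertain. Clusterin (Clu), an inhibitor of the terminal complex, stood at 0.385 CPM in CD4-depleted IPF-LC, against 6.78 in isotype IPF-LC, and at 0 counts in CD4-depleted LC, against 9.12 CPM in isotype LC. C7, the one terminal component among the 17, had a ratio of -5.41 (-8.79 to -3.84) in IPF-LC and -1.34 (-2.05 to -0.69) in LC.

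Several membrane regulators and receptors did not share this pattern. Cd55, which speeds the decay of C3 convertases, stood at 153 CPM in CD4-depleted IPF-LC, against 201 in isotype IPF-LC, and 151 in CD4-depleted LC, against 114 in isotype LC. Cr1l, the mouse regulator Crry, stood at 155 CPM in CD4-depleted IPF-LC, against 127 in isotype IPF-LC, and 148 in CD4-depleted LC, against 127 in isotype LC. Reads of Cr1l may be shared with Cd46, whose annotation overlaps it, though Cd46 had at most 0.385 CPM. Itgb2, the shared chain of the complement receptor integrins, was under 2-fold apart in each depletion comparison (-0.27 in IPF-LC and -0.61 in LC). C1qbp and Calr, which bind C1q and have other roles inside cells, were also under 2-fold apart in both models.

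Of the 7 receptors among the 17, 4 were at least 2-fold lower after depletion in each model: Itgam, Itgax, Cd93 and Lrp1. Itgam, the alpha chain of complement receptor 3, stood at 7.51 CPM in CD4-depleted IPF-LC, against 21.5 in isotype IPF-LC, and 1.28 in CD4-depleted LC, against 53.6 in isotype LC. Itgax, the alpha chain of complement receptor 4, had ratios of -1.51 (-1.77 to -1.26) in IPF-LC and -2.22 (-2.58 to -1.89) in LC. Cd93, once described as a C1q receptor and abundant on endothelium, had ratios of -3.18 and -4.41, and Lrp1, an endocytic receptor, -2.90 and -4.88, in IPF-LC and LC. Colec12, a collectin on membranes, was not lower in IPF-LC, with a ratio of 0.65 (-0.08 to 1.43). After depletion in LC it was at least 22.7-fold lower by the floor, while the upper end of its interval, -4.16, is a smaller fold.

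**Figure D4:**
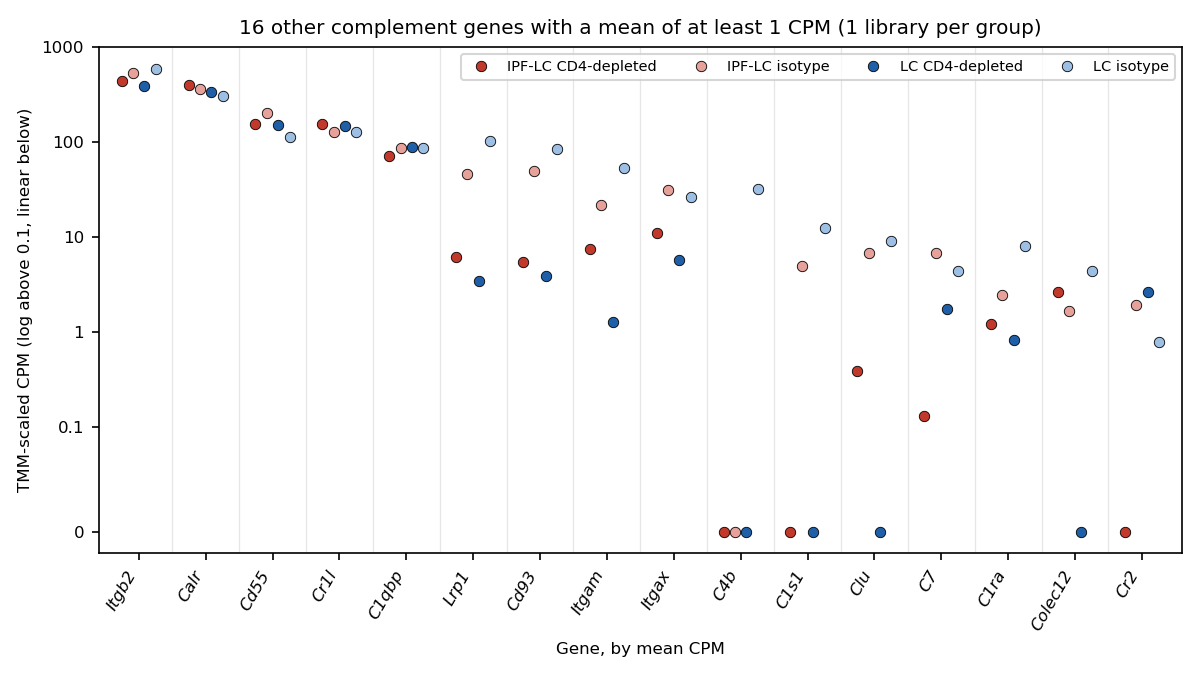
Level of 16 of the 17 other complement genes that averaged 1 CPM or more, in TMM-scaled CPM (logarithmic above 0.1 CPM and linear below), ordered by mean CPM, with 1 point per library. The 5 leftmost genes, Itgb2, Calr, Cd55, Cr1l and C1qbp, lie close together across the 4 libraries, whereas Itgam spans 1.28 to 53.6 CPM and C4b has counts in isotype LC alone.

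Genes of the list differed between models too. With isotype antibody 7 of the 17 were at least 2-fold lower in IPF-LC than in LC and 1 higher, where 11.7% of all genes were lower and 5.32% higher. After depletion 4 were higher and 2 lower, where 9.59% of all genes were higher and 7.61% lower. The 1 higher and the 2 lower are near those shares. Itgam was among the 7 lower with isotype antibody (-1.32, -1.50 to -1.13) and among the 4 higher after depletion (2.53, 1.86 to 3.32). Those are the directions shown by C5ar1, C3ar1 and C1qa.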

How the data were processed

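Libraries of sorted lung CD8+ T cells were made with SMART-Seq and NEBNext kits, per the labels' protocols. According to the submitters' processing notes, RSEM 1.3.3, STAR 2.7.11a, fastp 0.23.4 and MultiQC 1.25.2 were used, in roles not given, with the build GRCm39 (mm39). The annotation release and the strand setting are not given in the sources used here. Expected counts, as deposited, estimate the reads of each gene without normalisation, and those of the 9 genes were whole numbers. The deposited TPM values are scaled for length and library total, and the lengths, per the file headers, are gene lengths in bases.

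Expected counts were rounded and scaled to CPM by the library totals and TMM factors (edgeR 4.0.16 in R 4.3.3). Ratios used a prior count of 0.5, and intervals are exact conditional binomial ones at 95% (scipy 1.17.1). Counting intervals of levels are Poisson. The background is the 12231 genes averaging 1 CPM or more, and a gene counted as apart at 2-fold. A fold against 0 counts is a bound from a floor of 3 counts per library, and the counting interval allows a smaller fold. With 1 library per group no test was run and no p-value is given. An additive model over the 4 libraries was not fitted. Ratios and intervals were checked on simulated independent Poisson counts of genes averaging 10 CPM or more. That check does not cover genes with fewer counts or reads that are not independent.

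The 9 genes, the list of 50 others and the 11 marker lists were chosen with earlier results of these data known. Named are the 9, the listed genes averaging 1 CPM or more, the 5 nearest to C1qa and to C3 (gene models and receptor segments left out), and defining markers. Lyz2, markers at 0 and listed genes under 1 CPM were named after their values were seen. Some listed genes are not reported here by name, though they are in the counts. Start regions are RefSeq sequence of GRCm38.p6, matched by symbol. Alternatives were DESeq2 size factors, library totals, TPM with a pseudocount of 0.05, a prior count of 2, a 4-fold mark, whole intervals beyond 2-fold, and a minimum mean of 10 CPM or none.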

Additional observations from a re-analysis of the deposited data

Results flagged for a closer look

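Cr2, the complement receptor of B cells and follicular dendritic cells, went in opposite directions with CD4 depletion in the models, and this difference was not tested. It had 0 counts in CD4-depleted IPF-LC, against 30 in isotype IPF-LC, and 41 counts in CD4-depleted LC, against 12 in isotype LC. The log2 ratio was 1.71 (0.80 to 2.82) in LC. In IPF-LC the gene was at least 9.97-fold lower by the floor, while the upper end of its interval, -2.93, is a smaller fold. The fitted ratios differed by -7.64 (IPF-LC minus LC), a value that depends on the prior count. The 8 B cell markers summed to 20.1 CPM in CD4-depleted IPF-LC, against 46.3 in isotype IPF-LC, and to 22.3 in CD4-depleted LC, against 34.8 in isotype LC, so in LC this sum was lower where Cr2 was higher. None of the 9 genes went in opposite directions with depletion.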

How the results depend on the processing

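No paired analysis was possible because each group has 1 library and the labels give no replicate numbers. The counts of genes at least 2-fold apart stayed within 1.5 times under DESeq2 size factors, library totals, TPM and a prior count of 2, in all 4 comparisons. Of the 36 ratios of the 9 genes, 33 stayed within their counting interval by TPM and 36 by each of the other scalings. Where a library had 0 counts the interval has no limit on that side, so staying within it says little. The largest shift of a ratio was 2.30 log2 units by TPM and 1.99 with a prior count of 2. It was 0.03 with DESeq2 size factors and 0.07 with library totals. The exceptions by TPM were Cfp with depletion in LC (-3.03), Cfp in IPF-LC over LC after depletion (-0.87, against 0.58 by CPM) and C3 with isotype antibody (-3.62), where the gene lengths differed between libraries.

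For the 9 genes, a 4-fold mark left 5 lower with depletion in IPF-LC and 2 lower in IPF-LC over LC with isotype antibody. Requiring the whole interval beyond 2-fold left 7 lower with depletion in IPF-LC and 9 in LC. In IPF-LC over LC it left 6 lower with isotype antibody and 1 lower after depletion. A mean of at least 10 CPM, which leaves 5 genes, gave 5 lower with depletion in each model, 3 lower in IPF-LC with isotype antibody and 3 higher in IPF-LC after depletion. For the other complement genes, with 10 CPM as the minimum, 5 were lower with depletion in each model and 0 higher in LC. Between models they numbered 3 lower and 0 higher with isotype antibody, and 2 higher and 0 lower after depletion. Without a minimum, over all 50 listed genes, 3 were higher in IPF-LC and 2 higher and 18 lower in LC with depletion. In IPF-LC over LC, 2 were higher and 17 lower with isotype antibody, and 5 were lower after depletion. Shares of all genes are given for the 2-fold mark and the minimum of 1 CPM alone. Nothing is therefore read from the counts at other marks or minimums. The single higher gene in LC and in IPF-LC with isotype antibody, Cr2 in each case, was lost (0) at 4-fold and with whole intervals, and 2 of the 7 lower ones with isotype antibody passed 4-fold. With 50 CPM as the minimum, 1 of the 5 genes nearest to C1qa and 0 of those nearest to C3 were the same. The others averaged under 50 CPM and could not appear, so this overlap says nothing about stability. Without Lyz2 the log2 ratio of the macrophage and monocyte sums was -1.49 with depletion in IPF-LC and -5.38 in LC, against -1.59 and -5.73 with it, and in IPF-LC over LC after depletion it was 2.67, against 3.99. Depth was similar in the 4 libraries, and a count of 0 allows between 0.191 and 0.194 CPM by the floor of 3 counts.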

Other observations

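Complement genes under a mean of 1 CPM were outside the counts above. C5ar2, the second receptor for C5a, had 11 counts in CD4-depleted IPF-LC, against 0 in isotype IPF-LC, and 0 in CD4-depleted LC, against 12 in isotype LC, so it was detected in 1 library of each model. Cfd, the protease that activates factor B, had 25 counts in isotype LC and 0 in the other 3 libraries. The ficolin genes Fcna and Fcnb, whose products start the lectin pathway, had 14 and 7 counts in isotype LC and 0 elsewhere, and Vtn, an inhibitor of the terminal complex, had 15 there and 0 elsewhere. Susd4, a membrane regulator, had 0 counts in CD4-depleted IPF-LC, against 1 in isotype IPF-LC, and 22 in CD4-depleted LC, against 37 in isotype LC.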
